A study of Mus musculus with 15 samples.

Results

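Caspases are the proteases that carry out programmed cell death, and the apoptosis-inducing factors are flavoproteins of which the founding member leaves the mitochondrion in caspase-independent death. Transcripts of 8 such genes were followed here in hearts of diabetic mice. The genes are Casp2, Casp6, Casp8 and Casp9, the apoptosome scaffold Apaf1, the death-receptor partner Siva1, and the apoptosis-inducing factors Aifm1 and Aifm2. They were found by the gene name of the array probe, including the older names Siva, Pdcd8 (Aifm1) and Amid (Aifm2), which gave 12 probes of 41174 on the array, and all 8 genes also matched by RefSeq accession. All 12 probes were among the 27550 that passed a filter on dim signals, with 1 of 3 Apaf1 probes passing through the treated hearts alone.

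The study asked how rosiglitazone, a PPAR-gamma agonist, alters the transcriptome of the diabetic heart. Whole hearts were taken from 5 rosiglitazone-treated db/db mice (C57BL/KLS-leprdb/leprdb, 5 mg/kg/day mixed into normal chow for 4 months), 5 untreated db/db mice of the same genotype and 5 heterozygous db/+ littermates (C57BL/KLS-leprdb/lepr+) on normal chow. db/db mice carry the leptin receptor mutation on both alleles in every cell, become obese and insulin resistant, and no group here lacked the mutant allele altogether; the age and sex of the mice are not given in the sources used here. Each heart RNA (Cy5) was hybridised with a universal mouse reference RNA (Cy3) on its own array, and a value below is the log2 ratio of heart to reference, with which levels of different genes cannot be set against each other.

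The arrays of treated replicates 3 and 4 were nearly identical in the heart channel, so they were averaged and counted as 1 sample, which left 14. The spread of their log2 differences over probes, as a scaled median absolute deviation, was 0.142, against 0.267 to 0.621 in the other pairs of a group. Arrays shared slides, up to 4 to a slide. Slide 4 held treated arrays, slide 3 treated and untreated, slide 2 untreated arrays and db/+ replicate 5, and slide 1 the other db/+ arrays. The median heart signal was 229.4 to 302.2 on treated, 183.9 to 246.7 on untreated and 157.9 to 253.4 on db/+ arrays. Cardiomyocyte markers were bright in all groups, with a summed signal of 3520 to 5610, 2770 to 7010 and 1280 to 9900 array medians in treated, untreated and db/+ hearts, and 0 of the 8 passed the test in any comparison. Spots flagged as outliers were left out of these sums, so the arrays do not all sum the same genes. The ranges therefore cannot be read as cardiomyocyte content.

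Initiator caspases start the cascade when a platform brings their zymogens together. Caspase-8 is recruited by death receptors through Fadd, caspase-9 by Apaf1 once cytochrome c has left the mitochondrion, and caspase-2 by the PIDDosome of Pidd1 and Cradd. Executioner caspases such as caspase-6, which cleaves lamin A/C, then act on their substrates. Siva1 binds the tail of the TNF receptor Cd27 and was described as a p53 and E2F1 target. Aifm1 supports assembly of the respiratory chain in living cells, and Aifm2 is an NAD(P)H oxidoreductase of coenzyme Q known for restraining ferroptosis.

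The probes read short stretches of each transcript, and the bases are shown for the genes with several probes, since their probes did not always give the same call. Each line gives the first 30 of the 60 bases of a probe, as deposited, with probe 1 being the brightest of its gene in heart RNA.
Aifm1 probe 1 (chrX:44719718-44719777): agtagctaaactcttcaacattcatgaaga
Aifm1 probe 2 (chrX:44729234-44730115): ggtgaagagtagaacaacacttttcaggaa
Aifm2 probe 1 (chr10:61133929-61133988): ccgtctggatgaatctgtctgtggggaacg
Aifm2 probe 2 (chr10:61130847-61130906): gtgaacgagttcctccaggtggaaggttac
Apaf1 probe 1 (chr10:90419634-90419693): aacaaaatcttgtatagggttaaggaaggt
Apaf1 probe 2 (chr10:90420904-90420963): ggtaaattctttgatgcattcaaattggtt
Apaf1 probe 3 (chr10:90496974-90497033): ccattggaaaacaagacaaatctgggcttc

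These positions are those of the files, in the mouse build mm8, with Aifm1 and Apaf1 on the minus strand and Aifm2 on the plus strand; the exon or UTR of each probe was not looked up, because no annotation of that build was used here. Probe 2 of Aifm1 spans 882 genomic bases for its 60, so it crosses an intron. Probe 1 of Aifm2 lists 1 RefSeq transcript in the files and probe 2 lists 2. The other genes had 1 probe each, Casp2 at chr6:42211975-42212034, Casp6 at chr3:129905557-129905616, Casp8 at chr1:58789303-58789362, Casp9 at chr4:141087947-141088006 and Siva1 at chr12:113096892-113096951, all on the plus strand. Casp9 and Siva1 hold the hexamer AATAAA, the commonest polyadenylation signal, near the 3′ end of their probes, and the last 30 bases are shown with it in capitals.
Casp9: ttttataagcaatattttaAATAAAgcaat
Siva1: gtaacaagtgAATAAAcctctttatatttg

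Of all 41174 probes, 4.78% hold this hexamer, and a match does not show that the transcript is cut there.

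Both diabetic groups had lower Casp2, Siva1, Casp8 and Apaf1 ratios on average than db/+ hearts at the brightest probe of each gene. Their Aifm1 and Aifm2 ratios were higher there, but not every one of these differences passed the test. At the brightest probe, 5 of the 8 genes passed in treated db/db against db/+ hearts, with Casp2, Siva1 and Apaf1 lower and Aifm1 and Aifm2 higher. When untreated db/db hearts were set against db/+ hearts, 3 of 8 passed, Casp2, Siva1 and Casp8, all lower. None of the 8 passed between treated and untreated db/db hearts.

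The test was limma's moderated test with adjustment over all probes, called at an adjusted p under 0.05. Of the 12 probes, 6 passed in treated db/db against db/+ hearts, 3 in each direction, where 8.74% of all tested probes did (4.5% higher and 4.24% lower). For untreated db/db hearts set against db/+, 4 of the 12 passed, 1 higher and 3 lower, where 7.77% of all tested probes did (4.38% higher and 3.39% lower). The ranges of the groups did not overlap at 8 of 12 probes in treated db/db against db/+ (14.5% of all probes) and at 6 of 12 in untreated db/db against db/+ (7.91%). These comparisons share the db/+ samples, so their calls are not independent of each other. The count of 5 genes fell to 3 without db/+ replicate 4 or treated replicate 2, and to 2 without treated replicate 1 or 5. Over all tested probes the count fell as well, from 2408 to 1443, 1282, 1180 and 1093 in that order. Whole-heart RNA holds many cell types, so fewer cells of a type and less RNA per cell cannot be told apart.

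**Figure D1:**
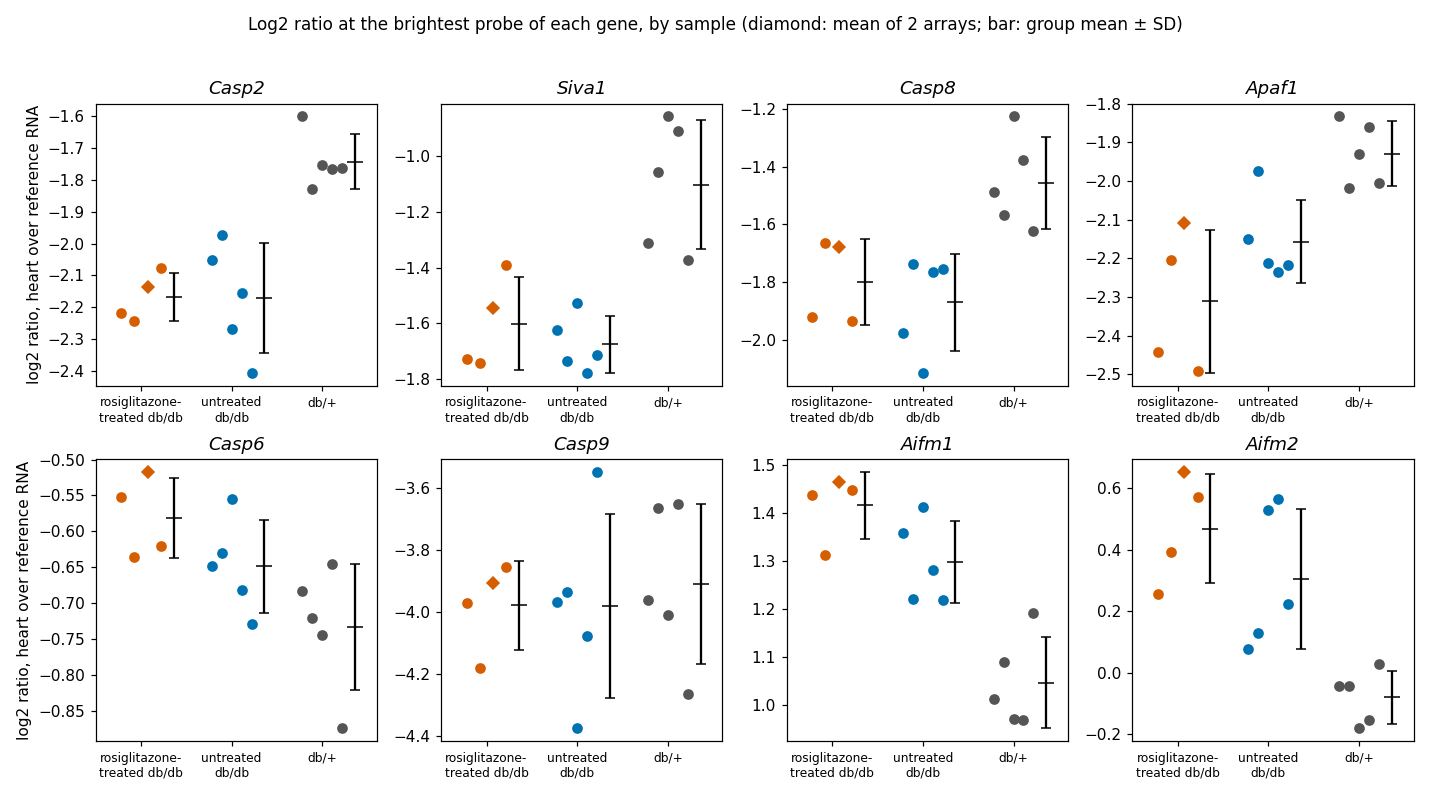
Log2 ratio of heart over reference RNA at the brightest probe of each of the 8 genes, in 4 treated db/db, 5 untreated db/db and 5 db/+ samples; the diamond is the mean of treated replicates 3 and 4, the bars are group mean ± SD, and each panel has its own vertical scale. Casp2 and Siva1 lie lower, and Aifm1 and Aifm2 higher, in every db/db sample than in every db/+ sample, while the groups overlap for Casp9.

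Among the initiator caspases, Casp2 was lower in every db/db heart. Its log2 ratio was -2.22, -2.24, -2.14 and -2.08 in treated replicates 1, 2, 3 and 4 averaged, and 5, and -2.05, -1.97, -2.27, -2.16 and -2.41 in untreated replicates 1 to 5. In db/+ replicates 1 to 5 it was -1.60, -1.83, -1.75, -1.77 and -1.76. Neither db/db range reached the db/+ range. The log2 difference was -0.43 ± 0.10 (SE) for treated db/db minus db/+, a 1.34-fold lower ratio (95% interval -0.63 to -0.22, adjusted p = 0.018), and -0.43 ± 0.09 for untreated db/db minus db/+ (-0.62 to -0.23, adjusted p = 0.014). The treated call was lost, with the size little changed, without treated replicate 1 or 2 (adjusted p = 0.055 and 0.056), and the untreated call with only the 2 groups in the fit (0.051).

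Casp8, the initiator of the death-receptor pathway, had ratios of -1.92, -1.67, -1.68 and -1.93 in treated hearts. Untreated hearts had -1.98, -1.74, -2.12, -1.76 and -1.76, and db/+ hearts -1.49, -1.57, -1.23, -1.38 and -1.62. All db/db samples again lay under all db/+ samples, with a gap of 0.04 on the log2 scale between the highest treated sample and the lowest db/+ sample. Untreated db/db minus db/+ was -0.41 ± 0.11, a 1.33-fold lower ratio (adjusted p = 0.035), and treated db/db minus db/+ was -0.34 ± 0.11 (adjusted p = 0.076). The call for untreated hearts was lost, at adjusted p = 0.050 to 0.082, when db/+ replicate 3 or 4 or untreated replicate 1, 3 or 5 was left out. It was also lost with only the 2 groups in the fit (adjusted p = 0.077) or array weights (0.075). A replicate block with treated replicates 3 and 4 separate lost it too (adjusted p = 0.054). Leaving out both db/+ replicate 3 and untreated replicate 2 lost it as well (adjusted p = 0.069).

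Casp9, the initiator of the mitochondrial pathway, gave no such separation. Its ratios ran over -4.18 to -3.85 in treated, -4.38 to -3.55 in untreated and -4.26 to -3.65 in db/+ hearts, and the groups overlapped throughout. The difference was -0.07 ± 0.16 for treated db/db minus db/+ (95% interval -0.42 to 0.28, adjusted p = 0.83) and -0.07 ± 0.15 for untreated db/db minus db/+ (-0.40 to 0.26, adjusted p = 0.81). With normexp background correction and loess in place of the deposited ratio, the differences lay beyond these intervals, at -0.91 for treated (adjusted p = 0.22) and -1.16 for untreated db/db minus db/+ (adjusted p = 0.097).

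Apaf1, the scaffold on which caspase-9 is activated, had 3 probes. At probe 1 the ratios were -2.44, -2.20, -2.11 and -2.49 in treated hearts, -2.15, -1.97, -2.21, -2.23 and -2.22 in untreated hearts, and -1.83, -2.02, -1.93, -1.86 and -2.01 in db/+ hearts. Treated samples all lay under the db/+ samples, whereas untreated replicate 2 lay within them. Treated db/db minus db/+ was -0.38 ± 0.10, a 1.30-fold lower ratio (adjusted p = 0.031), and untreated db/db minus db/+ was -0.23 ± 0.09 (adjusted p = 0.14). The treated call was lost without db/+ replicate 4, treated replicate 1 or treated replicate 5 (adjusted p = 0.067, 0.094 and 0.099). It was also lost with normexp and loess (0.084), scaling between arrays (0.054), the replicate block (0.057) or a fit of only the 2 groups (0.067), each an adjusted p.

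Probe 2 of Apaf1 was also lower on average in both db/db groups but did not pass, at -0.25 ± 0.15 for treated db/db minus db/+ (adjusted p = 0.31) and -0.47 ± 0.14 for untreated db/db minus db/+ (adjusted p = 0.061). Probe 3 was dim and entered the test through the treated hearts alone, with heart signal well above background on 4 of 5 treated, 3 of 5 untreated and 1 of 5 db/+ arrays. The other 11 probes were well above background on all 15. Its ratios are therefore mostly near background in db/+ hearts, where they spread over -3.30 to -1.67, and no direction was read from them.

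Casp6, the executioner caspase of the group, leaned upward without passing. The ratios were -0.64 to -0.52 in treated, -0.73 to -0.56 in untreated and -0.87 to -0.65 in db/+ hearts. Treated samples lay just above the db/+ range, and untreated samples overlapped it. The differences were 0.15 ± 0.08 for treated db/db minus db/+ (95% interval -0.01 to 0.32, adjusted p = 0.22) and 0.08 ± 0.07 for untreated db/db minus db/+ (-0.07 to 0.24, adjusted p = 0.49).

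Siva1, the Cd27-binding factor, showed the largest difference of the brightest probes in untreated hearts. Treated hearts had ratios of -1.73, -1.74, -1.55 and -1.39, and untreated hearts -1.62, -1.74, -1.53, -1.78 and -1.71. The db/+ hearts had -1.31, -1.06, -0.86, -0.91 and -1.37. Every db/db sample was lower than every db/+ sample, although treated replicate 5 and db/+ replicate 5 were nearly level. The log2 difference was -0.50 ± 0.12, 1.41-fold lower, for treated db/db minus db/+ (adjusted p = 0.025) and -0.57 ± 0.12, 1.49-fold lower, for untreated db/db minus db/+ (adjusted p = 0.011). Without db/+ replicate 4, treated replicate 1 or treated replicate 2 the treated call was lost (adjusted p = 0.061, 0.079 and 0.076). So it was with normexp and loess (0.054), scaling between arrays (0.055), only the 2 groups in the fit (0.064) or db/+ replicate 3 and untreated replicate 2 both left out (0.058), each an adjusted p.

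The apoptosis-inducing factors went the other way. Aifm1, at probe 1, had ratios of 1.44, 1.31, 1.46 and 1.45 in treated hearts and 1.36, 1.22, 1.41, 1.28 and 1.22 in untreated hearts, against 1.01, 1.09, 0.97, 0.97 and 1.19 in db/+ hearts. All db/db samples lay above all db/+ samples, with db/+ replicate 5 close to the lowest untreated sample. Treated db/db minus db/+ was 0.37 ± 0.08, a 1.29-fold higher ratio (adjusted p = 0.015), and untreated db/db minus db/+ was 0.25 ± 0.08, 1.19-fold (adjusted p = 0.059). The treated call was lost, just short of the threshold, without treated replicate 5 (adjusted p = 0.050).

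At probe 2 of Aifm1, whose sequence crosses an intron, the differences were 0.42 ± 0.15 for treated db/db minus db/+ (adjusted p = 0.084) and 0.40 ± 0.14 for untreated db/db minus db/+ (adjusted p = 0.091). The db/+ hearts spread widely here, with 0.78, 1.05, 0.45, 0.46 and 1.16, and the highest, replicate 5, lay within the range of both db/db groups, while replicate 2 lay within the untreated range only. Without db/+ replicate 5 the adjusted p was 0.037 in the treated and 0.041 in the untreated comparison.

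Aifm2, the coenzyme Q oxidoreductase, had ratios at probe 1 of 0.26, 0.39, 0.65 and 0.57 in treated and 0.08, 0.13, 0.53, 0.57 and 0.23 in untreated hearts. The db/+ hearts had -0.04, -0.04, -0.18, -0.15 and 0.03. No db/db sample reached the db/+ range, though untreated replicates 1 and 2 lay close above it. Treated db/db minus db/+ was 0.55 ± 0.12, a 1.46-fold higher ratio (adjusted p = 0.016), and untreated db/db minus db/+ was 0.38 ± 0.11, 1.31-fold (adjusted p = 0.056). The treated call was lost without treated replicate 5 (adjusted p = 0.055).

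Probe 2 of Aifm2 passed in both comparisons. It read 0.02, 0.10, 0.19 and 0.15 in treated and -0.09, -0.18, 0.20, 0.06 and -0.01 in untreated hearts. In db/+ hearts it read -0.35, -0.45, -0.58, -0.51 and -0.46, below every db/db sample. The difference was 0.59 ± 0.09, 1.5-fold higher, for treated db/db minus db/+ (adjusted p = 0.0022) and 0.47 ± 0.08, 1.38-fold higher, for untreated db/db minus db/+ (adjusted p = 0.0060), the smallest adjusted p among the 12 probes in each comparison.

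**Figure D2:**
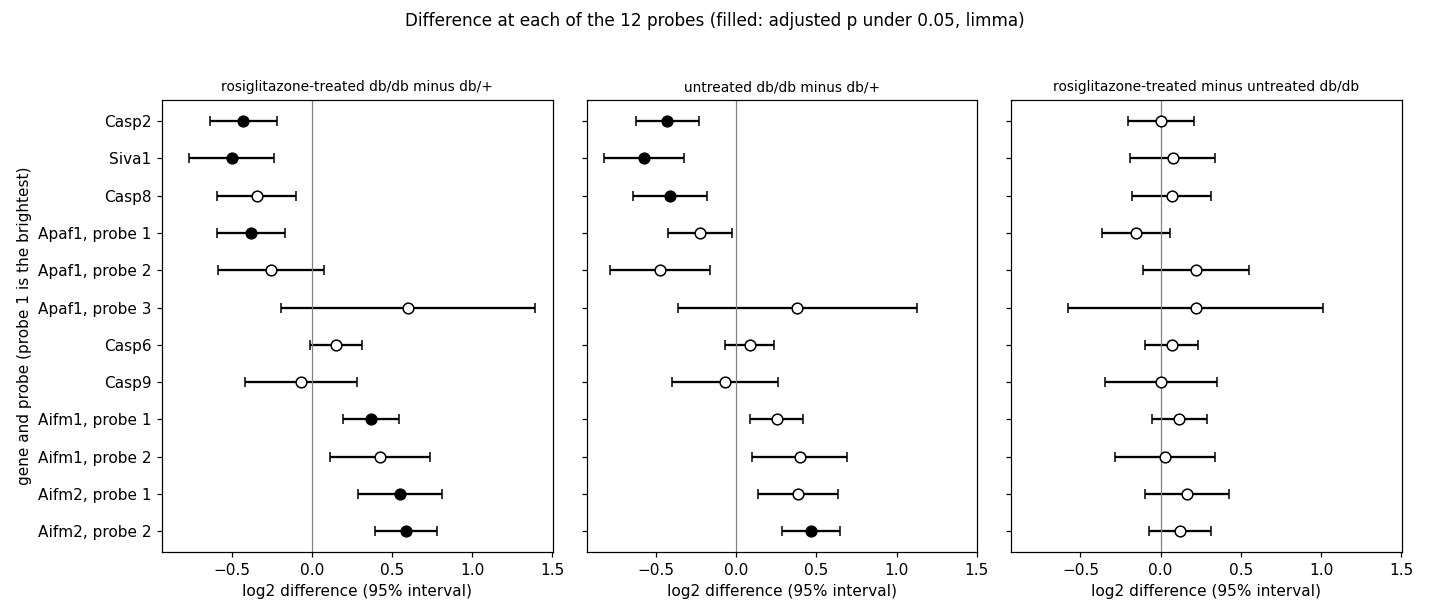
Log2 difference with its 95% interval at each of the 12 probes in treated db/db minus db/+, untreated db/db minus db/+ and treated minus untreated db/db, with filled points where the adjusted p was under 0.05. The caspase, Siva1 and Apaf1 points that passed lie left of 0 and the Aifm1 and Aifm2 points right of it, and no point in the third panel is filled.

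The paired probes of a gene were compared sample by sample, as a description with no test, over 14 samples that share arrays. The 2 probes of Aifm2 followed each other closely (r = 0.936 over all samples, 0.83 after removing each group's mean). Those of Aifm1 did so less (0.806 and 0.606). Probes 1 and 2 of Apaf1 were at 0.464 and 0.233, and the dim probe 3 was left out.

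**Figure D3:**
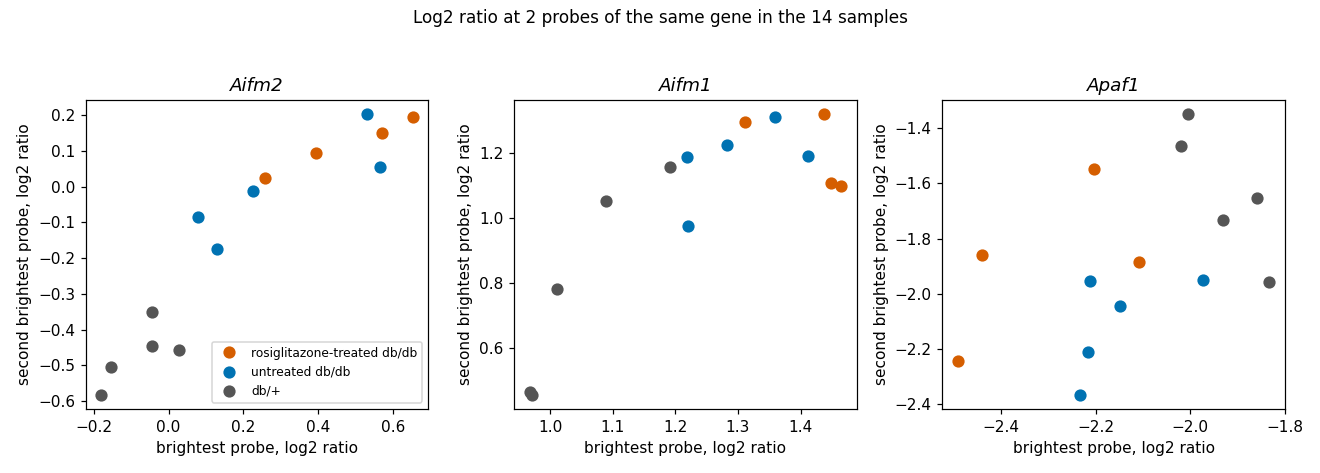
Log2 ratio at the brightest and second brightest probe of Aifm2, Aifm1 and Apaf1, with 1 point for each of the 14 samples, coloured by group. The db/+ points sit at the low end of both Aifm2 axes, whereas the 3 groups are less clearly parted along the second axis for Aifm1 and Apaf1.

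Rosiglitazone left no difference among these genes that passed the test. In treated against untreated db/db hearts 0 of 12 probes passed, as did 0% of all 27550, and 0 of 12 had an unadjusted p under 0.05, where 8.78% of all probes did. The groups overlapped at all 12 probes, against 4.36% of all probes at which they did not. The differences ran from -0.15 ± 0.10 at Apaf1 probe 1 (adjusted p = 0.71) to 0.22 ± 0.15 at Apaf1 probe 2 (adjusted p = 0.75). A value that misses the threshold does not show that the groups were alike. The 95% intervals were -0.20 to 0.21 for Casp2, -0.18 to 0.32 for Casp8, -0.35 to 0.35 for Casp9, -0.10 to 0.23 for Casp6, -0.19 to 0.34 for Siva1, -0.06 to 0.29 for Aifm1 and -0.10 to 0.42 for Aifm2, each at probe 1.

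The median log2 difference over the 12 probes was 0.04, 0.01 and 0.07 in treated db/db minus db/+, untreated db/db minus db/+ and treated minus untreated db/db, with members lying in both directions in the comparisons with db/+. Over all tested probes the medians were 0.01, 0.01 and -0.01. The median size of the difference, sign aside, was 0.40, 0.39 and 0.10 for the 12 probes against 0.21, 0.19 and 0.13 for all probes.

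Slide and group were largely bound together, since slide 1 held db/+ and slide 4 held treated arrays alone. With slide as a block in the fit, 0 of the 12 probes passed in any comparison (adjusted p = 0.45 to 1.0). Few probes passed that fit at all. Of all 27550 tested, 33 passed in untreated db/db minus db/+, 4 in treated db/db minus db/+ and 1 in treated minus untreated db/db. On slide 2, 3 untreated arrays can be set against db/+ replicate 5, without a test. There Casp2 differed by -0.33, Casp8 by -0.32, Siva1 by -0.25, Apaf1 probe 1 by -0.11, Aifm1 probe 1 by 0.14, Aifm2 probe 1 by 0.22 and Aifm2 probe 2 by 0.44. Of the 12 probes 11 kept their sign on this slide, though Aifm1 probe 2 was at 0.00029. Casp9 alone turned, to 0.17. At 6 of the 12, among them all 4 that passed, the untreated and db/+ ranges did not overlap. Their sign on this slide was thus fixed in advance and says nothing about the part of the slide.

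The db/+ replicate 5 was the db/+ array nearest to the untreated mean at 6 of the 12 probes, namely those of Casp8, Casp9 and Siva1, both of Aifm1 and probe 1 of Aifm2. The part of the slide in the differences from db/+ was not tested beyond these values. On slide 3, which held treated replicates 1 and 2 and untreated replicates 4 and 5, treated minus untreated was 0.05 for Casp2, -0.03 for Casp8, 0.01 for Siva1, 0.12 for Aifm1 probe 1 and -0.07 for Aifm2 probe 1. Treated and db/+ arrays shared no slide.

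**Figure D4:**
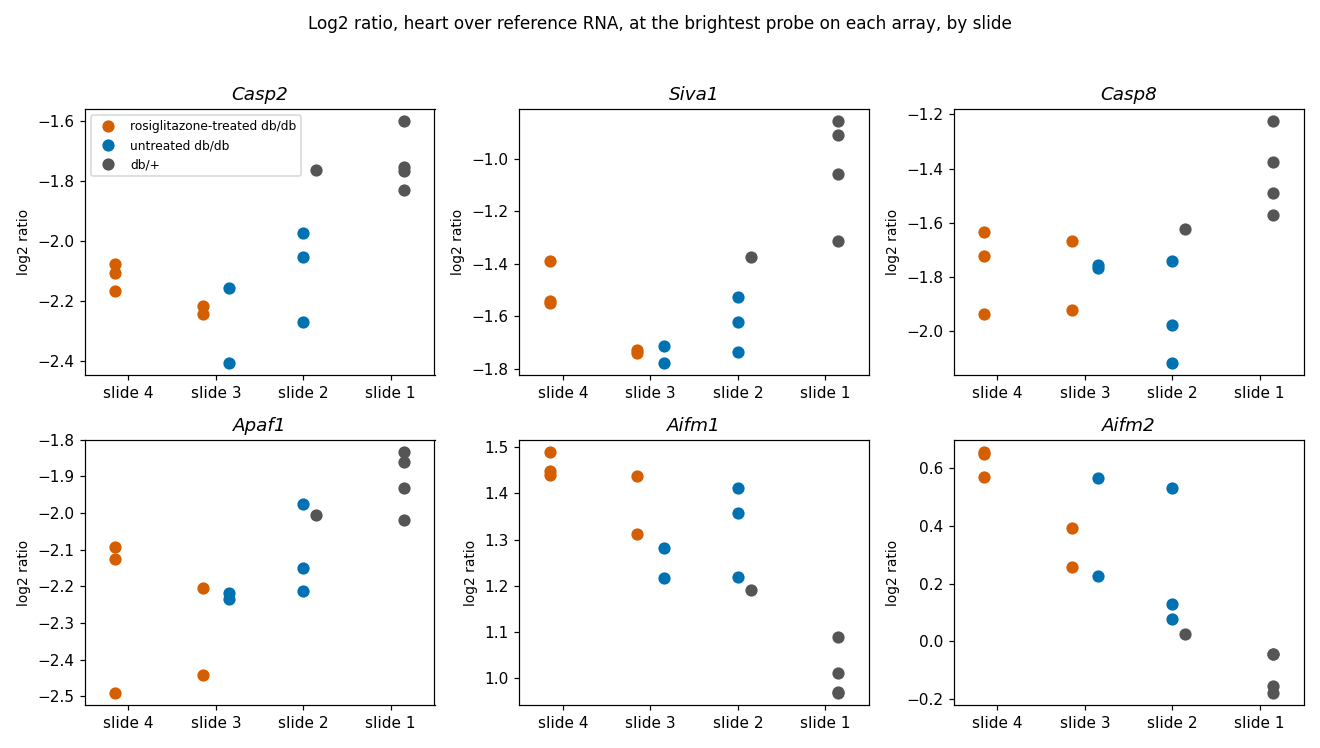
Log2 ratio at the brightest probe on each of the 15 arrays, arranged by slide and coloured by group, for the 6 genes that passed in at least 1 comparison. The db/+ array on slide 2 lies above the 3 untreated arrays beside it for Casp2, Siva1 and Casp8 and below them for Aifm1 and Aifm2, and it lies nearer to them than any slide 1 array does for Siva1, Casp8, Aifm1 and Aifm2.

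The remainder of the pathway was described from lists of related genes, each by its brightest probe. Of the listed genes reported here, 44 of 49 were tested, and 0 passed limma's test in any of the 3 comparisons. Over all tested probes 8.74% passed in treated db/db against db/+, 7.77% in untreated db/db against db/+ and 0% in treated against untreated hearts. An unadjusted p under 0.05 was reached by 13 of the 44 in treated db/db against db/+, 8 in untreated db/db against db/+ and 8 in treated against untreated hearts, where 26.8%, 25.5% and 8.78% of all tested probes reached it. The 44 tested genes were 3 further caspases, 8 adaptors and regulators of initiator caspases, 5 death receptors and ligands, 7 inhibitors of apoptosis and their antagonists, 6 mitochondrial factors and partners of Aifm1, 7 caspase substrates and nucleases, and 8 genes of p53 and its targets. Their median log2 difference was -0.0033 in treated db/db minus db/+, 0.0028 in untreated db/db minus db/+ and 0.0026 in treated minus untreated db/db hearts. Over all tested probes it was 0.0054, 0.0128 and -0.0094 in that order.

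Some markers of other cells also passed the test. Of 59 marker genes tested out of 70, 7 were lower and 1 higher in treated db/db against db/+ hearts, and 6 were lower and 2 higher in untreated db/db against db/+ hearts. Over all tested probes the shares that passed in either direction were 8.74% and 7.77%. B cell markers had a summed signal that did not overlap between db/db and db/+ hearts, at 1.03 to 1.52 array medians in treated and 1.08 to 1.41 in untreated against 2.38 to 2.98 in db/+ hearts, with 3 of 4 tested genes lower in both comparisons. The other tested gene, Cd79a, was higher on average without passing. It was at 0.56 ± 0.35 in treated (adjusted p = 0.32) and 0.09 ± 0.33 in untreated db/db minus db/+ (adjusted p = 0.89). The dividing-cell markers summed to 5.99 to 7.18, 6.58 to 8.64 and 6.79 to 12.8 in treated, untreated and db/+ hearts, with 1 of 4 lower in both comparisons. Adipocyte markers ran over 356 to 694, 438 to 652 and 1.42 to 732, with 2 of 5 tested genes lower in both comparisons and Lep not above background on any array. Spots flagged as outliers add nothing to these sums, so a low end can come from a bright gene left out. The 1.42 therefore cannot be read as a db/+ heart with little adipocyte signal, since Fabp4 was well above background on 14 of 15 arrays only. The summed signal of hepatocyte markers was higher in all db/db hearts, at 2.3 to 5.28, 1.43 to 37.0 and 0.861 to 1.37. The lowest untreated heart lay just above the highest db/+ heart. Of 3 tested hepatocyte genes, 2 passed as higher in untreated and 0 passed in treated against db/+ hearts. Neutrophil markers were at 4.25 to 34.7, 2.93 to 13.7 and 1.57 to 3.71, with 1 of 3 tested genes higher in treated against db/+ hearts. T cell markers overlapped, at 1.14 to 1.41, 0.883 to 1.59 and 1.09 to 1.93, and 1 of 7 was lower in treated against db/+ hearts. The part of these cells in the differences of Casp2, Casp8, Apaf1, Siva1, Aifm1 and Aifm2 was not tested.

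For each gene that passed, the 3 genes with the most similar pattern over the 14 samples are given as a description, with Pearson's r and without a test, since samples of a group and of a slide move together. Casp2 was closest to Erlec1, Tcf4 and Tuba1a (r = 0.936, 0.929 and 0.929), Casp8 to Mitd1, Fam111a and Serp1 (0.953, 0.937 and 0.926) and Siva1 to Snai2, Ing5 and Rpl31 (0.928, 0.926 and 0.923). Apaf1 was closest to Plgrkt, Gab3 and Cfd (0.904, 0.892 and 0.892), the last of which is an adipocyte marker that was well above background on 9 of 15 arrays. Aifm1 was closest to Herpud1, Pip5k1b and Tmem53 (0.956, 0.953 and 0.944), and Aifm2 to Phyhd1, Pfkp and Atp1b1 (0.954, 0.944 and 0.941). Among the 8 genes themselves, after removing each group's mean, r ran from -0.814 for Casp8 with Aifm1 to 0.566 for Casp8 with Apaf1 over the 28 pairs.

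The promoters of the 8 genes were read from RefSeq (GRCm38.p6), over the 250 bases before the start of each gene, as a description. Motifs of E2F (TTTCCCGC or TTTGGCGC) and NRF1 (GCATGCGC) were chosen after these promoters had been read, and both strands were searched. Casp2 and Siva1 each held TTTCCCGC, beginning 97 and 121 bases before the start, and Apaf1 and Aifm1 each held the NRF1 motif. The matches are in capitals within 50 bases, on the strand of the gene.
Casp2 (chr6:42264867-42264916, plus strand): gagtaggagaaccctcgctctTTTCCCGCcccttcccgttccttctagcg
Siva1 (chr12:112644686-112644735, plus strand): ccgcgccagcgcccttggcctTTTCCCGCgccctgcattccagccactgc
Apaf1 (chr10:91082828-91082877, minus strand): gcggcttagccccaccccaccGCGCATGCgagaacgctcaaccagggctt
Aifm1 (chrX:48513579-48513628, minus strand): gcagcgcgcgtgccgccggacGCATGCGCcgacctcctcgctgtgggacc

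Of 32851 promoters of this length, 1.3% held the E2F motif and 2.26% the NRF1 motif. Because the motifs were chosen from the promoters of these genes, their matches cannot be weighed against these shares. A match is a run of letters and not a measured site, and Casp6, Casp8, Casp9 and Aifm2 held neither motif in this window.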

How the data were processed

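Arrays from 15 mouse hearts, each from a separate mouse per the study's methods, were used. Per the file headers, the authors scanned two-colour Agilent 4x44K mouse arrays and, with Feature Extraction 9.5.1.1, subtracted a spatially fitted background, normalised the dyes with LOWESS and deposited intensity values of both channels. They deposited the log10 ratio of heart (Cy5) over reference (Cy3) for each spot, and 0 cells of the series value table differed from it. The flags for spots well above background were used as deposited.

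The ratio was converted to log2, control spots and outlier spots (0.304 to 2.79% per array) were left out, and spots of a probe were averaged. A probe was tested if its heart signal was well above background on 4 of 5 arrays of a group. All 3 groups entered 1 fit in limma 3.58.1 (R 4.3.3, with statmod 1.5.0) with 11 residual degrees of freedom and Benjamini-Hochberg adjustment over 27550 probes. No outlier-flagged or saturated spot was among the 12 probes. The number of arrays limits the precision. Figures used Python 3.11.15, numpy 2.4.6 and matplotlib 3.10.9.

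The genes and lists were chosen with earlier results of these data known. Named were every gene of the group at all probes, list genes that passed (none of those reported here), and the 3 genes most correlated with each member that passed. The study's own algorithm, which relies on permuted samples, was not run. The alternatives were other background, scaling and filter settings, slide or replicate number as a block, array weights, a fit of 2 groups, treated replicates 3 and 4 apart, a wider threshold, and leaving out arrays. Certain listed genes are left unreported.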

Additional observations from a re-analysis of the deposited data

How the results depend on the processing

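Of the 8 genes, 5 passed in treated db/db against db/+ hearts, 3 in untreated db/db against db/+ hearts and 0 between treated and untreated hearts. The last count stayed at 0 under every alternative. In the comparison of treated hearts with db/+, 3 passed with normexp and loess, 3 with scaling between arrays, 3 with only the 2 groups in the fit, 0 with slide as a fixed block and 2 to 5 with each array left out. In the comparison of untreated hearts with db/+, 5 passed with normexp and loess, with the stricter filter, with slide as a random block, with treated replicates 3 and 4 as separate mice and at an adjusted p under 0.10, 1 passed with only the 2 groups in the fit, 0 with slide as a fixed block and 2 to 4 with each array left out. Over all tested probes the counts moved as well (main fit: 2408 in treated and 2140 in untreated against db/+). Treated against db/+ had 1476 with normexp and loess, 1817 with scaling, 1872 with 2 groups and 4 with slide fixed. Untreated against db/+ had 3052 with normexp and loess, 2275 with the stricter filter and 5043 with slide random. It had 2593 with treated replicates 3 and 4 separate, 927 with 2 groups and 33 with slide fixed. The cause was not tested. A block of replicate numbers was fitted with treated replicates 3 and 4 as separate samples. It gave 4, 2 and 0 genes in treated against db/+, untreated against db/+ and treated against untreated hearts. With replicates 3 and 4 separate and no block, 5 genes passed in each comparison with db/+. Same-numbered samples did not deviate together (correlations -0.191 to 0.048), so the numbers do not pair the samples.

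No difference that passed the test changed its direction under any alternative. Casp9 turned in untreated minus db/+ to 0.026 with scaling and to 0.17 with slide as a block or within slide 2 (-0.18 to 0.029 with each array left out), and in treated minus db/+ to 0.019 with scaling. Apaf1 probe 3 turned with normexp and loess, to -0.21 in treated and -0.23 in untreated minus db/+. In treated minus untreated hearts, where nothing passed, Casp2 turned to -0.00316 with scaling and -0.013 with slide as a random block, Casp9 to -0.00641 with scaling, -0.015 with array weights and -0.26 with slide as a block or within slide 3, Casp8 to -0.034 and Aifm2 probe 1 to -0.070 with slide as a block or within slide 3, and Aifm1 probe 2 to -0.00729 with slide as a random block and -0.024 without db/+ replicate 3 and untreated replicate 2. With each array left out these differences ran over -0.056 to 0.052 for Casp2, -0.096 to 0.11 for Casp9, -0.021 to 0.36 for Apaf1 probe 3 and -0.024 to 0.061 for Aifm1 probe 2.

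Probe 3 of Apaf1 was near background in most db/+ arrays, and its values bound little.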
